A study of Arabidopsis thaliana with 6 samples.

Results

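The vesicle traffic genes described here are the 23 Arabidopsis thaliana genes with a symbol that starts with VPS, SEC or RAB and goes on, after at most a pair of letters, with a digit. The stems EXO70, SYP, VAMP, VTI, SNX and ARF were searched in the same way and gave 0 members each. A gene was a member when a probe set named it alone, with the brightest such probe set taken where there were several, and the auxin response factors, ARA6, MON1, CCZ1A and CCZ1B were left out. The 23 members are among 16542 genes named in this way on the array. They comprise 10 VPS genes, 12 SEC genes and 1 RAB gene. RefSeq lists 170 Arabidopsis symbols for all the stems searched, of which 29, 16 and 50 are for VPS, SEC and RAB. It lists 23 each for EXO70 and SYP, 11 for VAMP, 2 for VTI, 3 for SNX and 13 for ARF, so 0 members does not mean that a stem has no genes. Genes that are not members by this rule were not analysed as such here. The members therefore do not stand for their families.

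Transcripts were measured on 6 Affymetrix whole-transcript arrays of whole plants aged 14 days, 3 of ara6-1 and 3 of the wild type (WT). The mutant ara6-1 is a knock-out of ARA6, the plant-specific branch of the RAB5 GTPases, and both groups share the Columbia background. Seeds of both groups spent 1 day at 4 °C and were then raised on MS plates in continuous light at 23 °C. The labels give each group 3 biological replicates and do not say what separated them, so p-values measure the spread between these samples, and the number of arrays limits the precision. The study asked how the loss of ARA6 changes the transcripts of the plant.

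Cargo moves between plant membranes in vesicles that are budded by coats, addressed by small RAB and ARF GTPases, held at the target by tethers such as the exocyst, and fused by SNARE proteins with the help of SEC1/MUNC18 proteins. Endosomes sort membrane proteins for destruction through the ESCRT complexes, which push vesicles into the endosome so that the cargo reaches the vacuole. RAB5 GTPases such as ARA6 act on these endosomes and, for ARA6, also on transport to the plasma membrane.

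The ARA6 transcript (AT3G54840), the targeted gene, had log2 intensities of 6.98, 7.15 and 6.89 in ara6-1 and of 7.99, 8.40 and 8.34 in WT, so the groups did not overlap, but its log2 fold change of -1.24 did not pass over all probe sets either (limma, adjusted p = 0.140). Of the root and shoot markers, PYK10 (AT3G09260) stood at 12.29 to 12.36 in ara6-1 and 12.21 to 12.25 in WT, and LHCB4.1 (AT5G01530) at 9.81 to 10.05 in ara6-1 and 9.72 to 9.77 in WT, both higher in all 3 mutant arrays without passing in limma (adjusted p = 0.727 and 0.634). The markers EXPA7 (AT1G12560) of root hairs and SBPASE (AT3G55800) of photosynthesis overlapped between the groups, at 5.50 to 5.80 and 11.37 to 11.43 in ara6-1 and at 5.45 to 5.69 and 11.27 to 11.41 in WT. Their part in the results on the traffic genes was not tested. The pollen genes AT5G62850 and AT5G45880 stayed between 1.63 and 3.04 in ara6-1 and between 1.43 and 2.87 in WT, in the dim range of these arrays. In RNA of whole plants, fewer cells of a type and less RNA per cell cannot be told apart. The arrays ara6-1 replicate 1 and WT replicate 3 varied most, with SDs of 0.165 and 0.169 around their group means over the brighter probe sets, where the other 4 had 0.120 to 0.126.

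The vesicle traffic transcripts differed little between ara6-1 and WT. Of the 23, 0 had an estimated difference of 1.2-fold or more, whereas 17.6% of all 28501 probe sets tested and 12.0% of those above the median intensity did. The log2 fold changes, ara6-1 minus WT, lay between -0.20 for VPS20.1 and 0.23 for SEC1B, with a median of -0.04 beside 0.00 over all probe sets. That median turned to 0.05 without ara6-1 replicate 1 and, likewise, without WT replicate 2. In limma with Benjamini-Hochberg adjustment over all probe sets, 0 of the 23 passed an adjusted p of 0.05 (background 0.0105%), and their adjusted p ran from 0.634 to 1. Unadjusted p values under 0.05 numbered 0 of 23 in the same limma fit, against 9.01% of all probe sets. With a prior variance that follows intensity, and in an unmoderated test, 1 of the 23, RAB6A, had an unadjusted p under 0.05 and 0 passed. The shares of all probe sets with an unadjusted p under 0.05 were 10.2% and 8.97% in these fits.

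**Figure D1:**
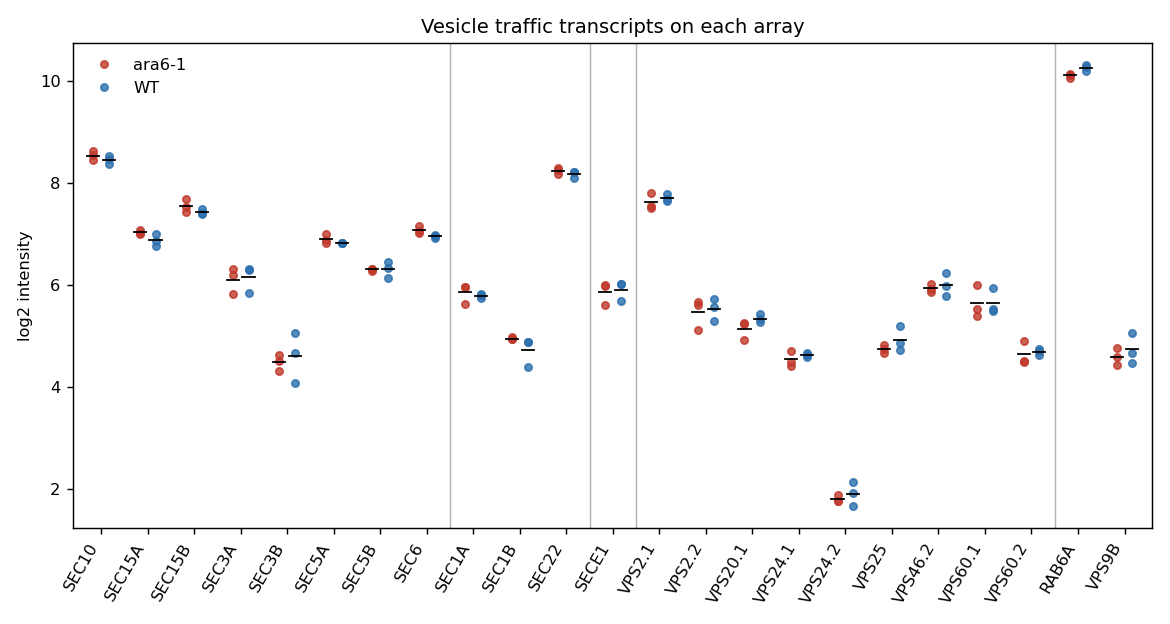
Log2 intensity of the 23 vesicle traffic transcripts on each array, ara6-1 in red to the left of WT in blue, with a black bar at each group mean (n = 3 arrays each). Grey lines part exocyst, SNARE and SEC1 family, plastid translocase, ESCRT, and RAB-related genes; the groups overlap in 18 of the 23 transcripts.

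The VPS stem takes its name from vacuolar protein sorting in yeast, and 9 of its 10 members here encode ESCRT subunits. VPS20.1 (AT5G63880), which in yeast starts the assembly of the ESCRT-III filament, had log2 intensities of 4.93, 5.26 and 5.23 in ara6-1 and of 5.27, 5.33 and 5.43 in WT. All 3 mutant values lay below the WT values, though the gap between the highest mutant array and the lowest WT array was narrow. The means were 5.14 ± 0.18 in ara6-1 and 5.34 ± 0.08 in WT (SD, n = 3 each), so the log2 fold change was -0.20, its 95% interval running from -0.48 to 0.08 (limma, adjusted p = 0.641). The log2 fold change of VPS20.1 was -0.09 without ara6-1 replicate 1, its lowest array, and -0.05 without that array and WT replicate 3.

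VPS25 (AT4G19003), a subunit of the ESCRT-II complex that recruits VPS20, read 4.74, 4.68 and 4.82 in ara6-1 and 4.73, 5.20 and 4.86 in WT. The groups overlapped, and the WT mean was raised by WT replicate 2. Its log2 fold change was -0.18, with an interval of -0.51 to 0.14 (limma, adjusted p = 0.697), and it was -0.05 without WT replicate 2.

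Among the ESCRT-III core, VPS2.1 (AT2G06530) read 7.51, 7.55 and 7.81 in ara6-1 and 7.69, 7.78 and 7.64 in WT. The highest value of all belonged to ara6-1 replicate 3, so the groups overlapped, and the log2 fold change was -0.08 (-0.35 to 0.19; limma, adjusted p = 0.846), or -0.02 without ara6-1 replicate 1. Its relative VPS2.2 (AT5G44560) gave a log2 fold change of -0.06 (-0.48 to 0.36), which turned to 0.11 without ara6-1 replicate 1 and to 0.03 without WT replicate 2. VPS24, the partner of VPS2 at the end of the filament, is encoded by VPS24.1 (AT5G22950) and VPS24.2 (AT3G45000). VPS24.1 gave -0.09 (-0.35 to 0.17) and VPS24.2 gave -0.11 (-0.42 to 0.21) on the log2 fold change scale. VPS24.2 is singled out because it was the dimmest member. Its values of 1.89, 1.77 and 1.77 in ara6-1 and 1.68, 1.93 and 2.14 in WT were little above the arrays' 5th percentiles (1.54 to 1.68), so the size of its difference is not determined.

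VPS46.2 (AT1G73030, also called CHMP1A), which acts in sorting membrane cargo such as auxin carriers into endosomal vesicles, averaged 5.94 ± 0.07 in ara6-1 and 6.0 ± 0.22 in WT (SD, n = 3 each), for a log2 fold change of -0.06 (-0.37 to 0.25). A further probe set, not counted here because it also names the neighbouring AT1G73040, had a log2 fold change of 0.20 (-0.11 to 0.52). The genes VPS60.1 (AT3G10640) and VPS60.2 (AT5G04850) gave -0.01 (-0.46 to 0.44) and -0.05 (-0.37 to 0.26).

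VPS9B (AT5G09320) is the VPS gene nearest to ARA6 in function, as a relative of VPS9A, the exchange factor that loads plant RAB5 GTPases with GTP. Its log2 intensities were 4.77, 4.43 and 4.60 in ara6-1 and 4.68, 4.48 and 5.07 in WT. The groups overlapped, with the lowest value in ara6-1 replicate 2 and the highest in WT replicate 3. The log2 fold change was -0.14 with an interval of -0.54 to 0.25 (limma, adjusted p = 0.804), and it turned to 0.02 without WT replicate 3.

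All 10 VPS genes had a log2 fold change below 0, with a median of -0.09, and limma called 0 of the 10. On the whole array 49.6% of probe sets had a positive log2 fold change. That share varied with intensity, since 57.6% of probe sets above the median intensity and 41.6% of those at or below it did, and 5 of the 10 VPS genes lay above the median. The ESCRT values were uneven between arrays. As deviations from each gene's own mean over the 6 arrays, the 9 ESCRT genes averaged -0.127, -0.024 and 0.009 on ara6-1 replicates 1 to 3, against -0.027, 0.170 and -0.002 on WT replicates 1 to 3. On WT replicate 2 all 9 were above their own mean. Without WT replicate 2, 7 of the 10 VPS genes were below 0 and 3 above, and without ara6-1 replicate 1 the counts were the same. The VPS median stayed below 0 in the 15 alternative fits, between -0.14 and -0.04. Those that changed only the prior variance, moderation, block or rows could not move it.

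**Figure D2:**
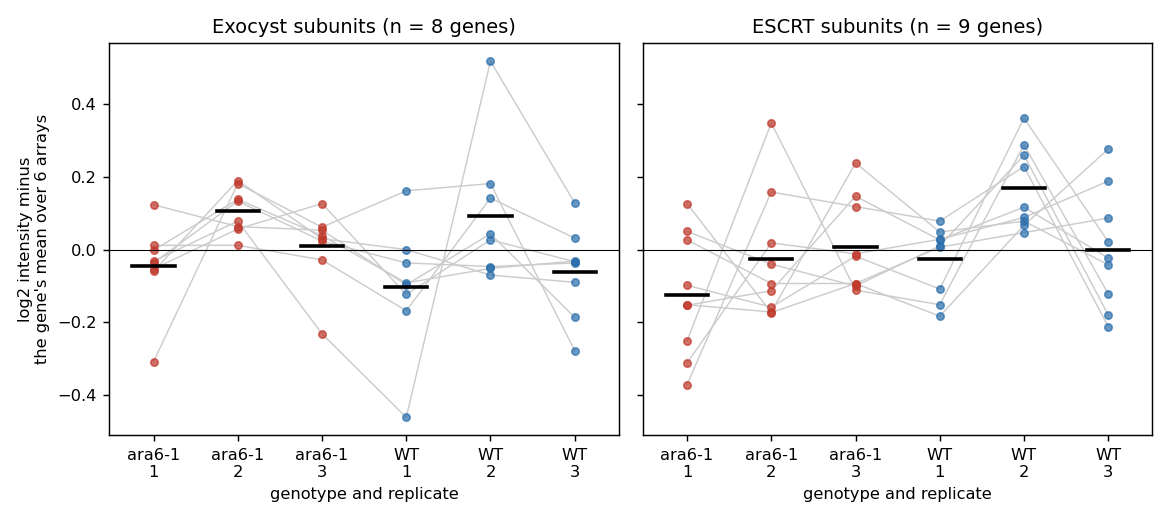
Log2 intensity minus the gene's own mean over the 6 arrays for the 8 exocyst and 9 ESCRT genes, with ara6-1 in red and WT in blue, grey lines joining the values of a gene and black bars at the mean of each array. The exocyst genes all lie above 0 on ara6-1 replicate 2, and the ESCRT genes all lie above 0 on WT replicate 2.

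The SEC stem, named after yeast secretion mutants, held 8 genes of the exocyst, the complex that tethers secretory vesicles to the plasma membrane. SEC15A (AT3G56640), a subunit that in yeast binds the RAB GTPase on the vesicle, had log2 intensities of 7.08, 7.02 and 7.01 in ara6-1 and of 6.86, 7.0 and 6.77 in WT. The mutant values all lay above the WT values, narrowly so for ara6-1 replicate 3 and WT replicate 2. The means were 7.04 ± 0.04 in ara6-1 and 6.88 ± 0.12 in WT (SD, n = 3 each), and the log2 fold change was 0.16 (-0.07 to 0.40; limma, adjusted p = 0.649). Its paralogue SEC15B (AT4G02350) had a log2 fold change of 0.11 (-0.13 to 0.35), with overlapping groups.

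SEC6 (AT1G71820), a core subunit known to act in cell plate formation and pollen tube growth, is given in full because its groups did not overlap, which was seen in its values. It read 7.02, 7.16 and 7.06 in ara6-1 and 6.93, 6.97 and 6.99 in WT, and its log2 fold change was 0.12 (-0.10 to 0.33; limma, adjusted p = 0.707). Its partner SEC10 (AT5G12370) read 8.44, 8.55 and 8.62 in ara6-1 and 8.37, 8.52 and 8.46 in WT. These values overlapped, and the log2 fold change of SEC10 was 0.09 (-0.15 to 0.32; limma, adjusted p = 0.801). SEC5A (AT1G76850) gave 0.08 (-0.14 to 0.30). For SEC5B (AT1G21170) the difference rounded to 0.00, with an interval of -0.26 to 0.26, the only one of the 23 that lay within 1.2-fold either way.

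SEC3A (AT1G47550) and SEC3B (AT1G47560), which encode the subunit that marks the plasma membrane site of exocytosis in yeast, are direct neighbours in the TAIR10.1 annotation. Whether their probe sets tell these related genes apart was not tested. SEC3B read 4.52, 4.63 and 4.32 in ara6-1 and 4.09, 5.07 and 4.68 in WT, so that WT held both the lowest and the highest value. With a WT SD of 0.50 it had the widest spread of the members, and its log2 fold change was -0.13 (-0.69 to 0.43). Without WT replicate 1 the value for SEC3B was -0.39, and without WT replicate 2 it was 0.10. SEC3A had a log2 fold change of -0.04 (-0.46 to 0.37), and gave 0.10 without ara6-1 replicate 1 and -0.19 without WT replicate 3.

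Fusion factors made up 3 further SEC genes. SEC1B (AT4G12120), a SEC1/MUNC18 protein related to the cytokinesis factor KEULE, showed the highest positive value of the 23 members. It read 4.94, 4.94 and 4.98 in ara6-1 and 4.88, 4.40 and 4.89 in WT. The mutant arrays all lay above the WT arrays, of which WT replicate 2 was far below the others. The means of 4.95 ± 0.02 in ara6-1 and 4.72 ± 0.28 in WT (SD, n = 3 each) gave a log2 fold change of 0.23 (-0.12 to 0.57; limma, adjusted p = 0.662), which was 0.06 without WT replicate 2. Its relative SEC1A (AT1G02010) gave 0.07 (-0.21 to 0.35), and SEC22 (AT1G11890), a SNARE of traffic between the endoplasmic reticulum and the Golgi, gave 0.06 (-0.17 to 0.28).

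SECE1 (AT4G14870) carries the SEC stem for another reason, since it encodes a subunit of the protein translocase of the thylakoid membrane and not a vesicle traffic factor. Its means were 5.87 ± 0.21 in ara6-1 and 5.91 ± 0.20 in WT (SD, n = 3 each), for a log2 fold change of -0.04 (-0.39 to 0.31). Of the 12 SEC genes, 8 had a positive and 4 a negative log2 fold change, SEC5B counted among the negative ones, and 10 lay above the median intensity, where 57.6% of probe sets were positive. Their median was 0.07, and 0 of the 12 passed in limma. The SEC median was between 0.03 and 0.13 in the 15 alternative fits. Those that changed only the prior variance, moderation, block or rows could not move it. On ara6-1 replicate 2 all 12 SEC genes were above their own means, by 0.109 on average, against -0.057 and 0.035 on ara6-1 replicates 1 and 3 and -0.059, 0.035 and -0.063 on WT replicates 1 to 3.

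**Figure D3:**
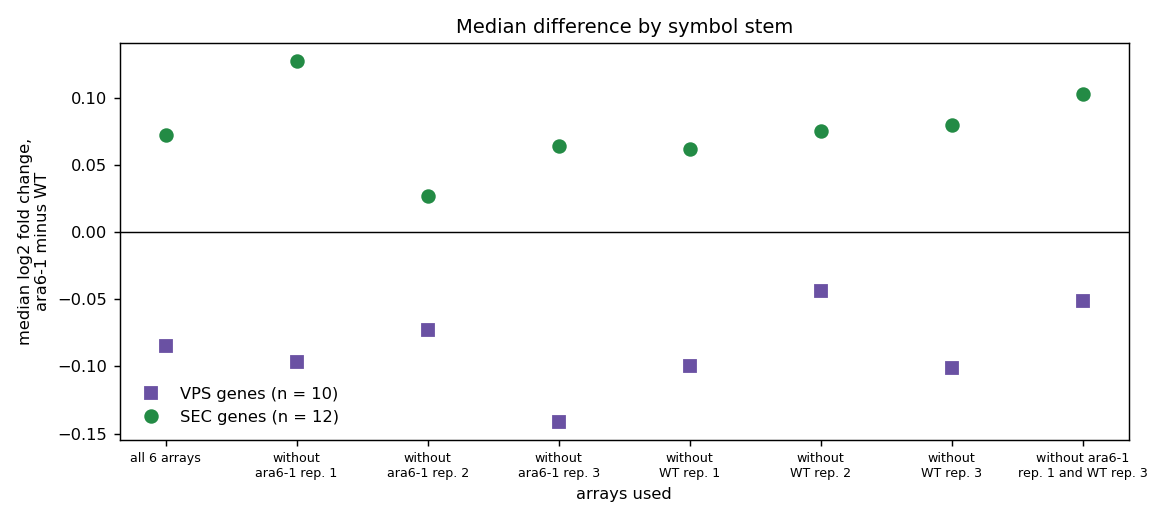
Median log2 fold change, ara6-1 minus WT, of the 10 VPS genes (squares) and the 12 SEC genes (circles) with all 6 arrays, without each array in turn, and without the 2 arrays that stood apart. The VPS median is below 0 and the SEC median above 0 in each, with no test of either.

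RAB6A (AT2G44610, also called ATRABH1B) was the one RAB gene, and encodes a GTPase of the Golgi apparatus. It read 10.13, 10.12 and 10.06 in ara6-1 and 10.27, 10.30 and 10.19 in WT. Each mutant array lay below each WT array, and the values within a genotype lay close together. The means were 10.10 ± 0.04 in ara6-1 and 10.25 ± 0.06 in WT (SD, n = 3 each), which puts the mutant lower by a log2 fold change of -0.15 (SE 0.09, interval -0.36 to 0.06). RAB6A had the smallest p of the members, an unadjusted 0.134 and an adjusted p of 0.634 in limma. The spread of RAB6A between arrays was at percentile 2.93 of all probe sets. With a prior variance that follows intensity, and in an unmoderated test, RAB6A had an unadjusted p under 0.05, as did 10.2% and 8.97% of all probe sets. Its adjusted p was 0.439 in the former fit, in limma, and 0.515 in the unmoderated test. In the 15 alternative fits RAB6A remained lower in the mutant, by log2 fold changes of -0.20 to -0.13. Those that changed only the filter, prior variance, moderation, block or rows could not move this value.

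The groups did not overlap in 5 of the 23 members (21.7%), against 15.7% of all probe sets. That share varied with intensity, and 16 of the 23 members lay above the median intensity. Above it 2850 of 14250 probe sets were separated, 1690 of them higher and 1160 lower in ara6-1. At or below it 1611 of 14251 were separated. SEC15A, SEC1B and SEC6 were higher in all 3 mutant arrays (3 members, background 7.81%), and VPS20.1 and RAB6A were lower (2 members, background 7.85%). With 3 arrays in each group, the smallest two-sided p that exact permutation allows is 0.10 for any such gene. Among the 5, 0 reached 1.2-fold, where 7.62% of all probe sets were both separated and at least 1.2-fold apart. The number of separated members depended on the arrays used, as did the share of all probe sets that were separated. It was 10 of 23 without ara6-1 replicate 1 (31.8% of all probe sets), 5 without ara6-1 replicate 2 (22.5%) and 8 without ara6-1 replicate 3 (23.0%). Without WT replicates 1, 2 and 3 in turn it was 10 (23.8% of all probe sets), 5 (25.5%) and 6 (28.5%). Without ara6-1 replicate 1 and WT replicate 3 together it was 12 (46.4%).

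**Figure D4:**
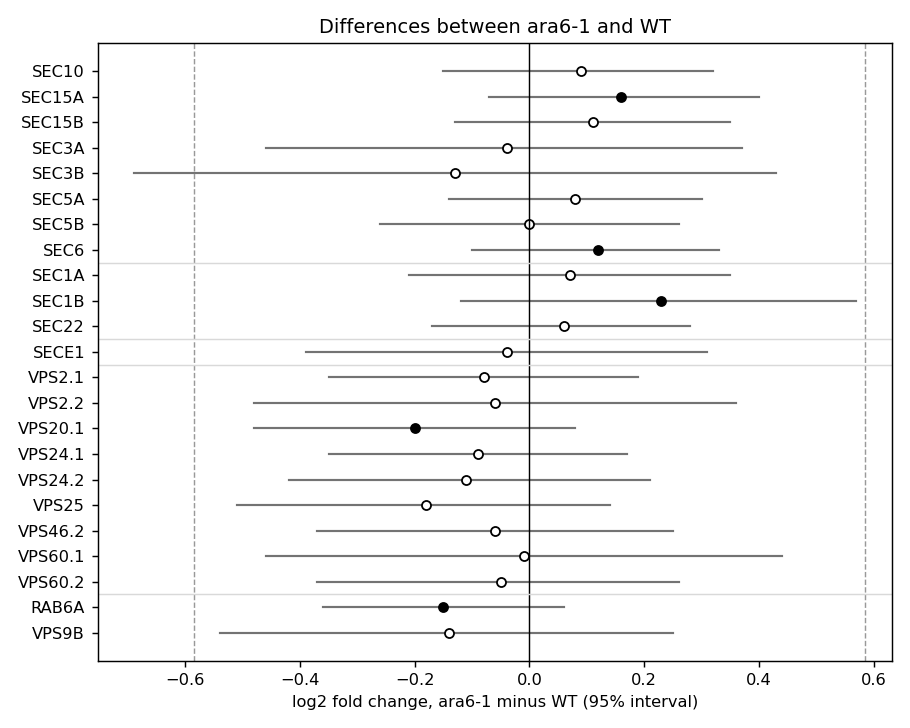
Log2 fold change, ara6-1 minus WT, with its 95% interval from limma for each member, ordered by role. Filled points mark the 5 genes with separated groups, dashed lines mark 1.5-fold either way, and every interval includes 0.

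The width of the intervals shows how closely these arrays bounded each difference, before any adjustment over all probe sets. VPS24.2 is left out of this count, since its values near the floor of the arrays cannot bound a fold. For 21 of the other 22 members the 95% interval lay within 1.5-fold either way, the exception being SEC3B, and for all 22 it lay within 2-fold. Single arrays weighed on the sign of these small differences, which changed in 10 of the 23 members without at least 1 of the 6 arrays and was kept in 13. An interval within 1.5-fold was found for 72.8% of all probe sets and for 86.2% of those above the median intensity, and 16 of the 23 members lay above it. Half-widths ran from 0.21 to 0.56 on the log2 scale. A call after adjustment over all probe sets needs a larger difference than these unadjusted intervals do. ARA6, with a log2 fold change of -1.24, did not pass (limma, adjusted p = 0.14). The count of 0 members past the threshold therefore says little about differences near 1.2-fold. The spread within genotypes differed between the stems as a description, with a median SD of 0.169 for VPS, 0.104 for SEC and 0.167 for all probe sets. Spread varied with intensity, the median SD being 0.123 for probe sets above the median intensity and 0.218 for the rest. Of the SEC genes 10 of 12 lay above the median intensity, and of the VPS genes 5 of 10.

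Paralogues in 7 pairs were set against each other within arrays to see whether one changed unequally to the other. The difference of their log2 fold changes ran from -0.16 for SEC1A minus SEC1B to 0.08 for SEC3A minus SEC3B and for SEC5A minus SEC5B. Two-sided exact permutation p values over the arrays lay between 0.6 and 1 for the 7 pairs, each with an adjusted p of 1, where 0.1 is the smallest p the design allows. Without WT replicate 2 the difference for SEC1A minus SEC1B was 0.01, and without WT replicate 1 that for SEC3A minus SEC3B was 0.42 and that for SEC5A minus SEC5B 0.16, in a comparison chosen after seeing the data. The other pairs were SEC15A and SEC15B, VPS2.1 and VPS2.2, VPS24.1 and VPS24.2, and VPS60.1 and VPS60.2, and their p values do not show that the paralogues acted alike.

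Other genes of the same pathways, from lists of coats, regulators, SNAREs, ESCRT factors and sorting receptors, were found under a gene name for 21 of 80 entries, a further entry being VPS46.2 itself. The lists were covered unevenly, with 0 of 8 sorting receptors and 2 of 17 SNARE entries found. From the COPI and COPII list 5 of 8 were found, all of them COPI subunits. In limma 0 of the 21 passed the threshold or had an unadjusted p under 0.05 (background 9.01%). Their median log2 fold change was 0.08, and 19 of the 21 were positive, with 20 of the 21 above the median intensity, where 57.6% of probe sets were positive. Among clathrin adaptors, alpha-ADR (AT5G22770), an adaptin of clathrin-mediated uptake, had 0.19 (-0.08 to 0.45) and AT5G22780 had 0.15. KEU (AT1G12360), the cytokinesis factor KEULE, had 0.10 and ATYKT62 (AT5G58180), a dim SNARE gene, had -0.14 (-0.40 to 0.11). The values of ATYKT62, 1.26 to 1.38 in ara6-1 and 1.38 to 1.63 in WT, were near or below the arrays' 5th percentiles (1.54 to 1.68). The size of its difference is therefore not determined. In the ESCRT list, ELC (AT3G12400) had 0.03 and AT1G15130 had 0.08. The list of RAB regulators gave 0.12 for AT3G15920 and 0.14 for AT1G24560, the list of ARF exchange factors 0.08 for AT3G60860 and 0.12 for AT4G38200, and the COPI and COPII list 0.17 for AT1G62020 and 0.08 for AT4G31480. The groups of AT3G15920 and AT4G31480 did not overlap, with ara6-1 higher in both, which makes 2 of 21 genes (9.52%) against 15.7% of all probe sets in either direction and 7.81% in this one. Above the median intensity, 2850 of 14250 probe sets were separated, 1690 of them with ara6-1 higher.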

How the data were processed

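Per the submitters' processing notes, the authors used Affymetrix Expression Console 1.3, and the deposited table holds linear intensity, a value for each probe set on each array. How probes were summarized, the genome build and the annotation are not given in the sources used here. Medians of the arrays lay between 28.8 and 29.2, so the deposited values were taken as normalized, then turned into log2 (0 values were under the floor of 1). Of 38408 rows, the 28501 written to 1 decimal or fewer were tested, and 9907 of unknown kind were left out. Gene names are those of the platform table, replaced by the RefSeq (TAIR10.1) symbol of the same identifier; 16704 tested probe sets named 1 gene, 744 several and 11053 were unlisted. No sequences or coordinates are given.

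The fit used limma 3.58.1 (R 4.3.3; lmFit, eBayes, constant prior, 4 residual and 3.31 prior degrees of freedom), with two-sided p-values adjusted by Benjamini-Hochberg across the 28501 probe sets, called under 0.05. It gave the 95% intervals. Members and lists were chosen with earlier results of these data known. The rule for values in every array took members past the threshold, the 2 smallest p and the highest mean of each stem, and separated members of at least 1.2-fold. SEC6, SEC3B, VPS24.2 and VPS9B were added after their values were seen. Alternatives changed the filter, normalization, prior variance, moderation, array weights, block, arrays, rows and threshold.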

Additional observations from a re-analysis of the deposited data

How the results depend on the processing

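The count of 0 vesicle traffic genes past the threshold in limma was the same in all 16 alternatives run, as was the 0 of the other pathway genes, and the smallest adjusted p of any member in these fits was 0.439 in limma. The 105 log2 fold changes of the 7 genes chosen by the rule kept their sign and their side of the threshold. Changes of the filter, prior variance, moderation, block or rows leave a log2 fold change as it is, so its sign was fixed there. Most of the 7 were chosen for a small p in these data, which favours a stable sign. Of all 23 members, 10 changed sign without at least 1 array. Without each array in turn, the median of the 23 ranged from -0.0716 to 0.054. It was 0.0539 without WT replicate 2 and 0.054 without ara6-1 replicate 1. The number of separated members ranged from 5 to 10 without each array, beside 22.5% to 31.8% of all probe sets. Leaving out ara6-1 replicate 1 together with WT replicate 3, 12 members were separated, beside 46.4% of all probe sets, and 1 probe set of all passed. Over all probe sets, 3 passed in the main analysis, 16 with a prior variance that follows intensity, 0 in an unmoderated limma test (8.97% with an unadjusted p under 0.05), and 2 to 4 without each array. The causes of these shifts were not tested, and the fits without an array also had fewer arrays. With the replicate number as a block, 0 members and 2 probe sets passed. Deviations of same-numbered arrays correlated at -0.196, 0.174 and -0.150, and those of WT replicate 3 and ara6-1 replicate 1 at 0.289. Deviations sum to 0 within each small group, so these values cannot decide whether a number marks a shared batch. The labels do not say either. Each member had 1 probe set of its own, so averaging probe sets could not differ and was not run. Leaving out the dimmest 25% of probe sets removed VPS24.2 from the test.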
